A study of Mus musculus with 9 samples.

Results

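The brakes on the cell division cycle were followed in the infarct border zone of the mouse heart: the 7 cyclin-dependent kinase (CDK) inhibitor genes Cdkn1a, Cdkn1b, Cdkn1c, Cdkn2a, Cdkn2b, Cdkn2c and Cdkn2d, together with Trp53, which encodes p53, and Mdm2. These 9 genes were chosen by name, and each matched 1 of the 53465 Ensembl gene IDs in the count tables. All 9 libraries came from hearts of NOD-SCID mice, a strain whose scid mutation blocks the making of mature T and B cells. There were 3 libraries after sham surgery, 3 after ligation of a coronary artery, and 3 after the same ligation and implantation of cells called FOXO3-GE-MPCs (here, the cell group). The labels call the sampled region the infarct border zone in sham hearts too. For replicates 2 and 3 of the cell group 1 label field gives another FOXO number, while title and treatment give FOXO3, which is followed here. The labels do not expand the abbreviation MPC or say which species the implanted cells came from. Animal age and sex, time after ligation and cell dose are not given in the sources used here. The labels do not say that replicates were separate animals, so p-values measure the spread between these libraries, which may in part be technical.

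CDK inhibitors bind the kinases that drive a cell from G1 into S phase and hold them inactive. The Cip/Kip proteins p21 (Cdkn1a), p27 (Cdkn1b) and p57 (Cdkn1c) act on several cyclin-CDK pairs, while the INK4 proteins (Cdkn2a to Cdkn2d) act on Cdk4 and Cdk6 and so keep the retinoblastoma protein active. The transcription factor p53 induces Cdkn1a after stress or DNA damage, and it also induces Mdm2, the ubiquitin ligase that sends p53 for degradation. Adult cardiomyocytes are almost all out of the cell cycle, whereas fibroblasts, endothelial cells and leukocytes of an infarct can divide.

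Gene counts ran from 4549268 to 7515052 per library, and 3 counts, taken as the smallest detectable level, were worth 0.375 to 0.639 CPM (counts per 1e+06 gene counts, scaled by TMM factors). The share of mitochondrially encoded genes was 19.6% ± 0.417 for sham, 13.2% ± 0.695 for ligation and 14.3% ± 0.0366 for the cell group (SD, n = 3 each), and its part in the results was not tested beyond a fit without these genes. Scaling by library totals in place of TMM moved the median gene by 0.19 on the log2 scale in ligation against sham and by 0.16 in cells against sham. Changes below are relative to the TMM scale. Cardiomyocyte markers summed to 37345 to 38173 CPM in sham, 26748 to 29030 in ligation and 25763 to 26977 with cells, so all libraries held myocardium. T cell markers summed to at most 3.20 CPM in any library, and B cell markers to 8.73 to 11.9 CPM in sham, 14.1 to 19.3 in ligation and 3.75 to 7.35 with cells. The 1 B cell marker tested was called in all 3 comparisons, while Cd3d and Ms4a1 had 0 counts throughout. Of the sham libraries 2 share a name stem in their file headers, as do 2 ligation libraries, and a fit with those libraries summed was an alternative.

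After ligation Cdkn2b rose about 3-fold, Cdkn1c fell to a little over 0.5 of its sham level, and Mdm2 rose 1.20-fold. Cdkn1a passed at 1.14-fold, but lost its call by DESeq2 and in several other fits given below. Cdkn1b, Cdkn2c, Cdkn2d and Trp53 did not pass the test, and Cdkn2a was near the limit of detection. In ligated hearts with implanted cells, none of the 8 tested genes passed the test against ligation alone. The plot of levels by library shows each value.

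**Figure D1:**
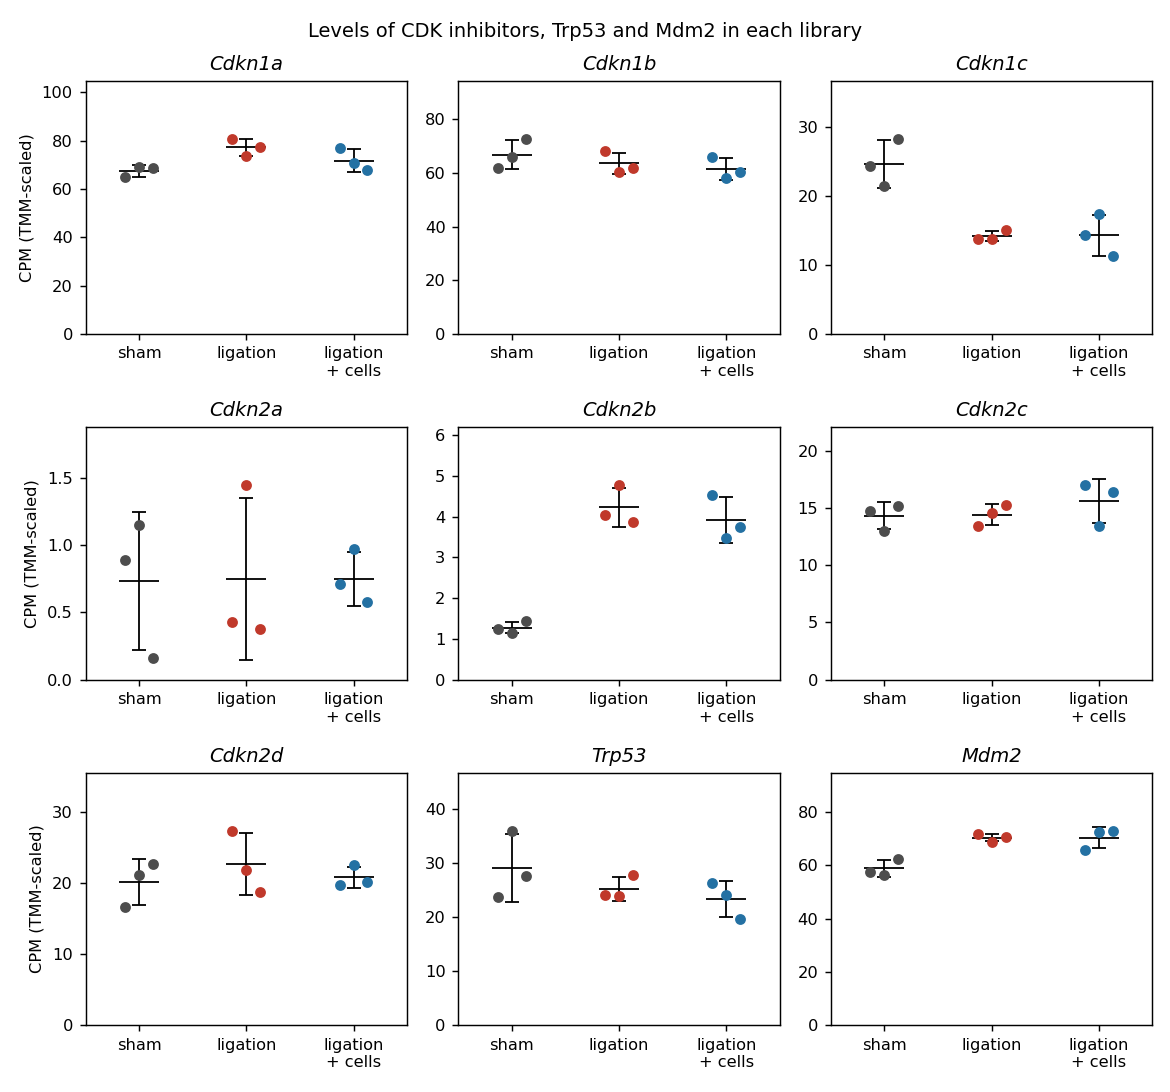
Level of each gene (vertical axis, CPM scaled by TMM factors, starting at 0) in the 3 sham, 3 ligation and 3 ligation plus cells libraries (horizontal axis); points are libraries in the order of replicates 1 to 3, and the bar with whiskers is the mean ± SD. Cdkn2b is at 1.15 to 1.43 CPM in sham and at 3.47 to 4.78 CPM in the libraries of both ligated groups, and Cdkn1c is lower in each of those than in any sham library.

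Per kilobase of exon, which allows genes to be compared, Cdkn1a was highest of the 9 in every group, at 18.99 ± 0.656 CPM per kb in sham (SD, n = 3). Cdkn1b (14.7 ± 1.178), Cdkn2d (12.8 ± 2.03), Cdkn1c (12.1 ± 1.68) and Mdm2 (11.6 ± 0.613 CPM per kb) followed in sham, and neighbours in this order overlapped. Trp53 at 7.19 ± 1.54 and Cdkn2c at 5.34 ± 0.437 CPM per kb came next, separate from those above and from each other. Cdkn2b at 0.918 ± 0.101 and Cdkn2a at 0.626 ± 0.440 CPM per kb were lowest and overlapped. In ligation the order changed in that Cdkn1c, at 6.98 ± 0.377 CPM per kb, dropped below Mdm2, at 13.9 ± 0.290, with no overlap, and Cdkn2b, at 3.05 ± 0.344, stood above Cdkn2a in every library. In the cell group the same held, with Cdkn1c at 7.04 ± 1.46 and Cdkn2b at 2.82 ± 0.400 CPM per kb. Trp53 and Cdkn2c overlapped there, at 5.77 ± 0.817 and 5.82 ± 0.711 CPM per kb.

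**Figure D2:**
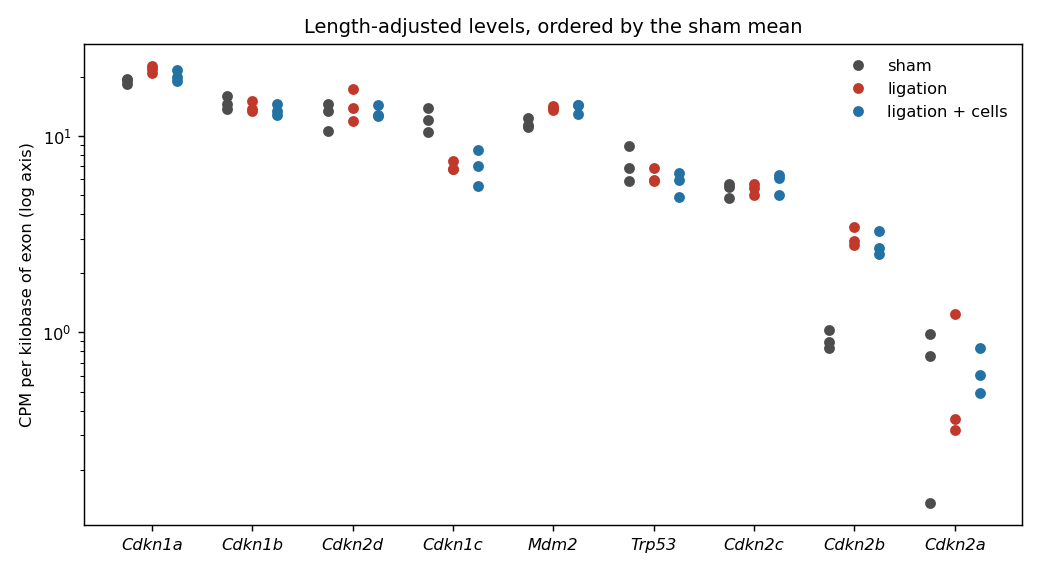
Length-adjusted level (vertical log axis, CPM per kilobase of exon) of the 9 genes, ordered by their sham mean; each point is 1 library and the colour gives the group. Cdkn1a is on top in every group, and Cdkn2b sits with Cdkn2a in sham but apart from it in both ligated groups.

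The INK4 family was the one with the largest single change. Cdkn2b (ENSMUSG00000073802, GRCm38/mm10 chr4:89306299-89311039, minus strand) encodes p15, an inhibitor known to be induced by TGF-beta. Its neighbour Cdkn2a (ENSMUSG00000044303, chr4:89274471-89294653, minus strand) lies 11645 bases away and gives rise to p16 and, from another first exon, to p19Arf, which binds Mdm2. The 250 bases before the Cdkn2b start are shown because this gene changed most; from RefSeq (GRCm38.p6, chr4:89311033-89311282, minus strand), the capitals mark the cyclic AMP response element TGACGTCA.
Cdkn2b: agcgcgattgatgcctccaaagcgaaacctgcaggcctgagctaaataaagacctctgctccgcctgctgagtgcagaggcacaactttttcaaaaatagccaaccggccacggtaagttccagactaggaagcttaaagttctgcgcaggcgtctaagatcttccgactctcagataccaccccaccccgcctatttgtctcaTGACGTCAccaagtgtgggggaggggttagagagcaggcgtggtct
That element, searched on both strands, occurs in 1.55% of 32851 such windows of 250 bases, and it is the only match in the Cdkn2b window among the 6 motifs searched. A match is a description of the letters, not a binding site.

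Cdkn2b was at 1.25, 1.15 and 1.43 CPM in sham replicates 1 to 3, at 4.05, 4.78 and 3.88 CPM in ligation, and at 4.54, 3.47 and 3.75 CPM in the cell group. All 6 libraries of the ligated groups were above all 3 sham libraries, and the ligated groups overlapped. The underlying counts were small, 7 to 9 reads in sham libraries and 19 to 33 in the others, and the gene passed the filter on low counts through the ligated groups. The rise after ligation was 1.71 on the log2 scale (SE 0.327, edgeR quasi-likelihood adjusted p 0.000276), a ratio of mean CPM of 3.32. With cells against sham it was 1.601 (SE 0.327, edgeR adjusted p 0.000511). The difference between cells and ligation was -0.11, with a 95% interval from -0.66 to 0.44, so a change of either sign up to those bounds was not detectable here. The gene with the most similar profile over the 9 libraries was Smpd3, whose log2 CPM, centred on its own mean, departed from that of Cdkn2b by a root mean square of 0.139. That likeness was sought among 13794 genes and is a description.

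Cdkn2a, by contrast, gave 1 to 10 reads per library and 44 in all 9, and it did not pass the filter. It was at 0.890, 1.15 and 0.159 CPM in sham, 0.426, 1.45 and 0.375 in ligation and 0.709, 0.971 and 0.576 with cells, so the groups overlapped and 3 libraries lay at or below 3 counts. In an edgeR fit of all genes with any count its log2 difference after ligation was 0.08 with a 95% interval from -1.31 to 1.46, so even a 2-fold change was not detectable at this depth. Reads counted per gene do not separate p16 from p19Arf transcripts.

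Cdkn2c (ENSMUSG00000028551, chr4:109660876-109667189, minus strand), which encodes p18, and Cdkn2d (ENSMUSG00000096472, chr9:21288410-21291407, minus strand), which encodes p19Ink4d, did not pass the test in any comparison. Cdkn2c ranged from 13.01 to 17.02 CPM over the 9 libraries, and Cdkn2d from 16.6 to 27.3. After ligation Cdkn2c differed by 0.02 on the log2 scale (95% interval -0.27 to 0.31) and Cdkn2d by 0.14 (-0.16 to 0.44). With cells against ligation the differences were 0.10 (-0.18 to 0.39) for Cdkn2c and -0.10 (-0.39 to 0.19) for Cdkn2d. Their edgeR adjusted p-values in these comparisons ran from 0.478 to 0.936, and the groups overlapped in both genes.

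Among the Cip/Kip inhibitors Cdkn1c fell. The gene (ENSMUSG00000037664, chr7:143458339-143461050, minus strand) encodes p57, is imprinted and is transcribed from the maternal copy. Its level was 24.4, 21.4 and 28.3 CPM in sham, 13.8, 13.7 and 15.1 CPM in ligation, and 14.3, 17.3 and 11.4 CPM with cells. Every library of the ligated groups was below every sham library. The log2 change was -0.79 after ligation (SE 0.148, edgeR adjusted p 0.000235) and -0.78 with cells against sham (SE 0.146, edgeR adjusted p 0.000207), ratios of mean CPM of 0.577 and 0.581. Between cells and ligation it was 0.01, with a 95% interval from -0.32 to 0.33. The exons of Cdkn1c overlap those of Gm44732 on the other strand over 30.7% of their length. Gm44732 had 0 counts in all 9 libraries, but reads from the shared part may have been set aside as ambiguous, so the Cdkn1c counts are uncertain there. The nearest profiles were those of Scand1 and Ppp1r9a, with root mean square differences of 0.107 and 0.123 in log2 CPM.

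Endothelial markers were lower in the same libraries as Cdkn1c. All 6 of them fell after ligation, their sum being 1891 to 1996 CPM in sham, 1249 to 1329 in ligation and 1356 to 1394 with cells, and all 6 fell with cells against sham. Of the 7 cardiomyocyte markers 4 fell and 1 rose after ligation (3 higher and 4 lower under library totals), and of the 5 tested smooth muscle and pericyte markers 3 fell and 1 rose (2 higher and 3 lower), where 20.1% of all genes rose and 18.0% fell. Fibroblast markers rose in 5 of 7 cases and fell in 1 (5 higher and 0 lower under library totals, by DESeq2 and by limma-voom), with sums of 1834 to 1878 CPM in sham, 3060 to 3115 in ligation and 2962 to 3038 with cells. The 5 markers of epicardium and mesothelium all rose, from sums of 31.1 to 41.1 CPM in sham to 206 to 248 CPM in ligation and 175 to 178 CPM with cells, and 2 of them fell with cells against ligation. No defining marker of these 5 lists was at 0 in any group. Their part in the changes of Cdkn1c and Cdkn2b was not tested, and in bulk tissue fewer cells of a type and less RNA per cell cannot be told apart.

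Cdkn1a (ENSMUSG00000023067, chr17:29090976-29100727, plus strand) encodes p21, the inhibitor that p53 is best known to induce. RefSeq gives it starts 2790 bases apart, and both windows of 250 bases are shown because the upstream one holds a p53 element (GRCm38.p6, chr17:29090729-29090978 and chr17:29093519-29093768, plus strand). Capitals mark the p53 element in the upstream window and the GC box GGGGCGGGG in the downstream one.
Cdkn1a upstream start: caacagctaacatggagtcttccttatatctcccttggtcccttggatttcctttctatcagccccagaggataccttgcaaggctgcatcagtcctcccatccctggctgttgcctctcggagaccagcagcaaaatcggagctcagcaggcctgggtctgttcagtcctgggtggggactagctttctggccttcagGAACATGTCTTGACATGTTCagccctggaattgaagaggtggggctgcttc
Cdkn1a downstream start: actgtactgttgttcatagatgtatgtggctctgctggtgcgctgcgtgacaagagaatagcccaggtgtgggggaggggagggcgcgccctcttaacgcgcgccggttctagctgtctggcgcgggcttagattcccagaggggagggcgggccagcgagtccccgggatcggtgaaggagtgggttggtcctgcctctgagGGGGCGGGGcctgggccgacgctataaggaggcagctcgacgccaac
The p53 element was searched as 2 adjacent half-sites of 10 bases with at most 1 mismatch outside their cores, a form chosen with these windows in view. It spans positions -51 to -32 before the upstream start and is found in 15 of 32851 windows (0.0457%), against 10.4% for the GC box. Counts per gene do not tell which start was used.

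Cdkn1a was at 64.8, 69.03 and 68.6 CPM in sham, 80.5, 73.7 and 77.4 CPM in ligation, and 76.9, 70.6 and 67.7 CPM with cells. Ligation libraries were all above sham libraries, while the cell group overlapped both. The log2 change after ligation was 0.19 (SE 0.0691, edgeR adjusted p 0.0344), a ratio of 1.14. This small rise lost its call without sham replicate 1, sham replicate 3, ligation replicate 1 or ligation replicate 3 (log2 changes of 0.16 to 0.20, edgeR adjusted p 0.0558 to 0.122). It also did so with DESeq2 (adjusted p 0.1003), with the libraries summed by header stem (edgeR adjusted p 0.102), and with mitochondrially encoded genes removed, only 2 groups fitted or no filter (edgeR adjusted p 0.0509 to 0.0598). In those last 3 fits the log2 change was 0.1744, 0.1759 and 0.1991, near the 0.1908 above, whereas scaling by library totals gave 0.38. With cells the log2 difference was -0.10 from ligation (95% interval -0.24 to 0.04) and 0.09 from sham (-0.06 to 0.23), and neither passed. The latter passed under library totals, at 0.2464 (edgeR adjusted p 0.006407). Cd63 and Actr2 had the most similar profiles, with root mean square differences of 0.0461 and 0.0478 in log2 CPM. Of the 31-mers of Cdkn1a, 9.78% occur in transcripts of other genes, so part of its counts is uncertain. Its exons also overlap those of AC167363.2 on the other strand over 7.7% of their length, where reads may have been set aside as ambiguous.

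Cdkn1b (ENSMUSG00000003031, chr6:134920401-134925513, plus strand), which encodes p27 and is a known target of FOXO factors, ranged from 58.1 to 72.5 CPM over the 9 libraries with overlap of all groups. Its log2 difference was -0.08 after ligation (95% interval -0.24 to 0.08), -0.04 with cells against ligation (-0.20 to 0.12) and -0.12 with cells against sham (-0.28 to 0.04). None passed by edgeR's quasi-likelihood test (adjusted p 0.450, 0.813 and 0.228), and the first and the last turned positive under scaling by library totals. The intervals allow changes of Cdkn1b no larger than about 0.28 on the log2 scale.

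Mdm2 (ENSMUSG00000020184, chr10:117688875-117710758, minus strand) rose in both ligated groups. The window before its start is given beside that of Cdkn1a, since p53 induces both genes; it is from RefSeq (GRCm38.p6, chr10:117710759-117711008, minus strand), and capitals mark the FOXO site GTAAACA and a GC box, here on the reverse strand.
Mdm2: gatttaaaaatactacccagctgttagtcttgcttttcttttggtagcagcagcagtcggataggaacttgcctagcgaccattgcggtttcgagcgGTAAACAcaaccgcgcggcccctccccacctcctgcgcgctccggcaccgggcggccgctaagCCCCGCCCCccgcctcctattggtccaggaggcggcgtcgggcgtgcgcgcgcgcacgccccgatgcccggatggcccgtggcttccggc
The FOXO site occurs in 3.17% of the 32851 windows. No p53 element of the searched form is in this window, and p53 is known to act on Mdm2 from its first intron, which lies outside it. The other motifs searched were the E2F site (TTTCGCGC or TTTGGCGC, in 0.654% of windows) and the TATA box (TATAAA, in 12.4%), and neither is in the windows shown. Windows were at hand for 8 of the 9 genes, Cdkn1c being the other.

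Mdm2 was at 57.7, 56.5 and 62.4 CPM in sham, 71.8, 68.9 and 70.6 CPM in ligation, and 65.8, 72.5 and 72.9 CPM with cells. Every library of the ligated groups was above every sham library. The log2 change was 0.26 after ligation (SE 0.0695, edgeR adjusted p 0.00581) and 0.26 with cells against sham (SE 0.0688, edgeR adjusted p 0.00494), each a ratio of 1.20. Scaling by library totals gave 0.45 and 0.42. Between cells and ligation the log2 difference was 0.00092, with a 95% interval from -0.14 to 0.14. Ap2a1 and Kifap3 had the most similar profiles, with root mean square differences of 0.0391 and 0.0402 in log2 CPM.

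Trp53 itself (ENSMUSG00000059552, chr11:69580359-69591873, plus strand) did not pass the test in any comparison. It was at 23.7, 35.9 and 27.6 CPM in sham, 24.1, 23.9 and 27.8 CPM in ligation, and 26.2, 24.0 and 19.7 CPM with cells. Sham replicate 2 was the highest library and the groups overlapped. The log2 difference was -0.20 after ligation (95% interval -0.49 to 0.09), -0.12 with cells against ligation (-0.41 to 0.17) and -0.32 with cells against sham (-0.61 to -0.03, edgeR adjusted p 0.0694). The last one passed without sham replicate 1 or cells replicate 1 (-0.44 and -0.41, edgeR adjusted p 0.0172 and 0.0386), with no filter on low counts (-0.31, edgeR adjusted p 0.0366) and with libraries summed by header stem (-0.33, edgeR adjusted p 0.0392). Other fits weakened it: those without 1 library ranged from -0.4442 to -0.1414, and library totals gave -0.1617 (edgeR adjusted p 0.3689). After ligation fits without 1 library ranged from -0.3222 to -0.01941, and library totals gave -0.009922 (edgeR adjusted p 0.9621). Of the 31-mers of Trp53, 10.2% occur in other genes, mainly the pseudogene Trp53-ps, which had 0 counts in all libraries. The activity of p53 is set mostly by protein stability and modification, which were not measured.

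**Figure D3:**
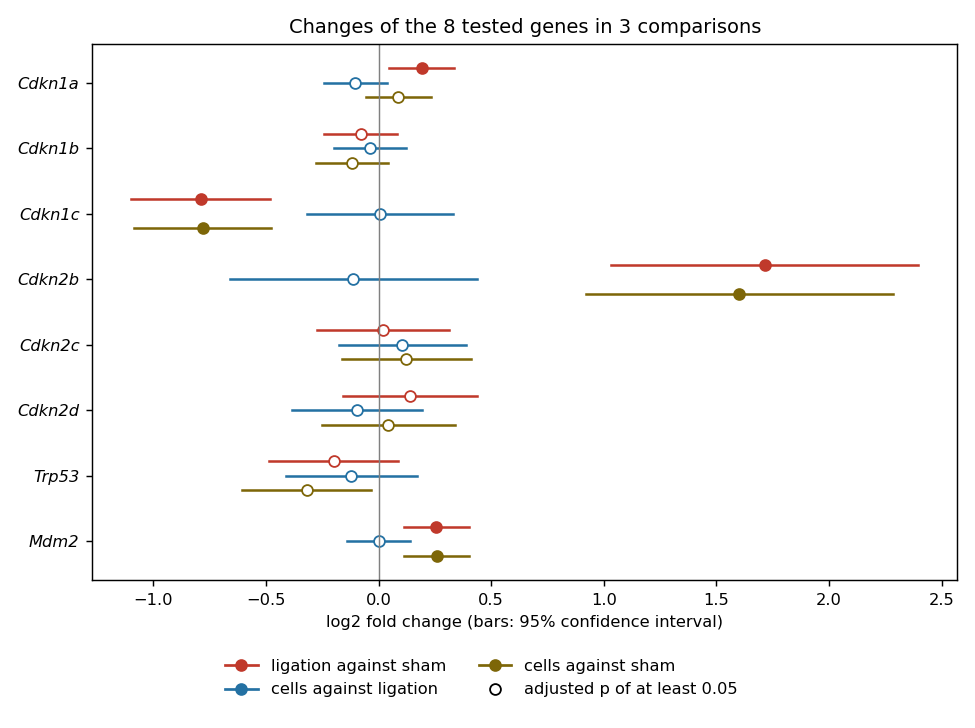
Log2 fold change (horizontal axis) with its 95% confidence interval for the 8 tested genes (rows) in 3 comparisons (colours); filled points have an adjusted p under 0.05. Cdkn2b and Cdkn1c stand apart from 0 in both comparisons with sham, at 1.71 and -0.79 after ligation, and all 8 intervals of cells against ligation include 0.

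Counted together, 4 of the 8 tested genes passed an adjusted p of 0.05 after ligation, 3 higher and 1 lower (by DESeq2 2 higher and 1 lower, without Cdkn1a). Among all 13825 genes tested, 38.2% passed there (20.1% higher and 18.0% lower), and the genes counted here are too few to be set apart from that background. With cells against sham 3 of 8 passed, 2 higher and 1 lower, where 40.9% of all genes did (21.0% higher and 20.0% lower). With cells against ligation 0 of 8 passed by edgeR, 0 had an unadjusted p under 0.05, and 0 passed by DESeq2 or limma-voom, where 9.87% of all genes passed by edgeR (4.19% higher and 5.69% lower). CPM ranges of the groups did not overlap for 4, 0 and 3 of the 8 after ligation, with cells against ligation alone and with cells against sham hearts, beside 47.6%, 27.2% and 49.8% of all genes. The median log2 change of the 8 was 0.08, -0.07 and 0.07, beside medians of 0.01, 0.00195 and -0.01 over all genes. The comparisons share libraries and are not independent of each other.

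Of 17 tested p53 regulators 5 passed after ligation, 1 higher and 4 lower (29.4% against 38.2% of all genes), and library totals gave 1 higher and 1 lower. Hipk2, a kinase that phosphorylates p53, was the one that rose, from 7.83, 11.2 and 9.21 CPM in sham to 32.2, 36.6 and 46.0 CPM in ligation (log2 change 2.04, SE 0.153, edgeR adjusted p 1.18e-09), and it was at 30.97 to 38.4 CPM with cells. Mdm4, the partner of Mdm2 that also restrains p53, fell. It was at 70.8, 76.3 and 61.8 CPM in sham, 46.02, 46.01 and 51.1 CPM in ligation, and 41.8, 34.96 and 43.5 CPM with cells (-0.54 after ligation and -0.80 with cells against sham, edgeR adjusted p 7.885e-05 and 6.27e-07). The checkpoint kinase gene Chek2 and the p53 ubiquitin ligase gene Rchy1 fell by 0.52 and 0.38 on the log2 scale (edgeR adjusted p 0.00622 and 0.00204), but both lost their call under library totals (edgeR adjusted p 0.06317 and 0.08945). Of the p53 relatives, Trp63 was at most 1.80 CPM and Trp73 at most 0.145 CPM in any library. With cells against ligation none of the 17 passed by edgeR, DESeq2 or limma-voom, although 4 had an unadjusted p under 0.05.

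Of 32 tested p53 target genes, 11 rose and 3 fell after ligation (43.8% against 38.2% of all genes), with a median log2 change of 0.24, and library totals gave 15 higher and 0 lower, DESeq2 10 higher and 1 lower. Gdf15, a stress cytokine, rose from 5.16, 3.95 and 3.33 CPM in sham to 26.6, 32.8 and 35.3 CPM in ligation and 32.9, 35.9 and 40.2 CPM with cells (2.95 and 3.14 against sham, edgeR adjusted p 1.65e-11 and 3.94e-12). The libraries of both ligated groups were above those of sham in Gdf15, which other stress pathways also induce. Ccng1, which encodes cyclin G1, rose by 0.38 after ligation and by a further 0.19 with cells (edgeR adjusted p 2.61e-06 and 0.0138), from 638 to 694 CPM in sham to 826 to 951 CPM in ligation and 992 to 1025 CPM with cells. The second step lost its call without ligation replicate 2 or 3 (edgeR adjusted p 0.0746 and 0.0815).

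Ptprv, a phosphatase gene, rose from 0.890 to 1.15 CPM in sham to 1.92 to 4.25 CPM in ligation (1.73, edgeR adjusted p 0.00132). The apoptosis gene Pmaip1 (Noxa) was at 0 to 1.25 CPM in sham and 1.88 to 4.34 CPM in ligation (edgeR adjusted p 0.0107), a call lost without sham replicate 2 or ligation replicate 2 (edgeR adjusted p 0.05067 and 0.103). Neither Ptprv nor Pmaip1 had a sham library at the filter's limit. Ptprv passed it through both ligated groups, where it is high, and Pmaip1 only with the ligation libraries, where it is high. With cells Pmaip1 was at 0.832 to 1.70 CPM and did not pass against sham (0.91, edgeR adjusted p 0.292). Perp, Ei24 and Gadd45a fell by 0.32, 0.19 and 0.59 on the log2 scale after ligation (edgeR adjusted p 0.000305, 0.0423 and 0.0344). All 3 of these lost their call under library totals, where Perp was at -0.1305, Ei24 at 0.00132 and Gadd45a at -0.4 on the log2 scale. Ei24 and Gadd45a also lost it by DESeq2, with libraries summed by header stem (edgeR adjusted p 0.05365 and 0.05108), Ei24 with no filter (0.08148), and both in fits without 1 library (Ei24 without sham 2, sham 3, ligation 2, cells 1 or cells 3, Gadd45a without sham 1, sham 3 or ligation 2), and Gadd45a with the replicate number as a block (edgeR adjusted p 0.05045). Bax, the pore-forming killer of the BCL2 family, did not pass after ligation (-0.15, edgeR adjusted p 0.324), but was lower with cells than in sham (-0.49, edgeR adjusted p 0.00229).

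With cells against ligation 4 of the 32 targets rose and 0 fell (12.5% against 9.87% of all genes), and the list median was -0.01; library totals gave 3 higher and 0 lower. Btg2, an antiproliferative gene that is also an immediate-early gene, was at 55.2, 51.7 and 59.8 CPM in ligation and 88.2, 101.5 and 95.4 CPM with cells (0.77, SE 0.0739, edgeR adjusted p 3.545e-07). Every library with cells was above every other library in Btg2. Rrm2b, a ribonucleotide reductase subunit, rose by 0.37 and Perp by 0.20 (edgeR adjusted p 0.0101 and 0.0444). Rrm2b lost its call without ligation replicate 3 or cells replicate 2 (edgeR adjusted p 0.07563 and 0.0541), and Perp lost it in the fits without ligation replicate 2 or 3 or without any 1 library of the cell group, with libraries summed by header stem (0.1822, edgeR adjusted p 0.09966), and under library totals (0.1686) or upper-quartile scaling (0.1857).

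**Figure D4:**
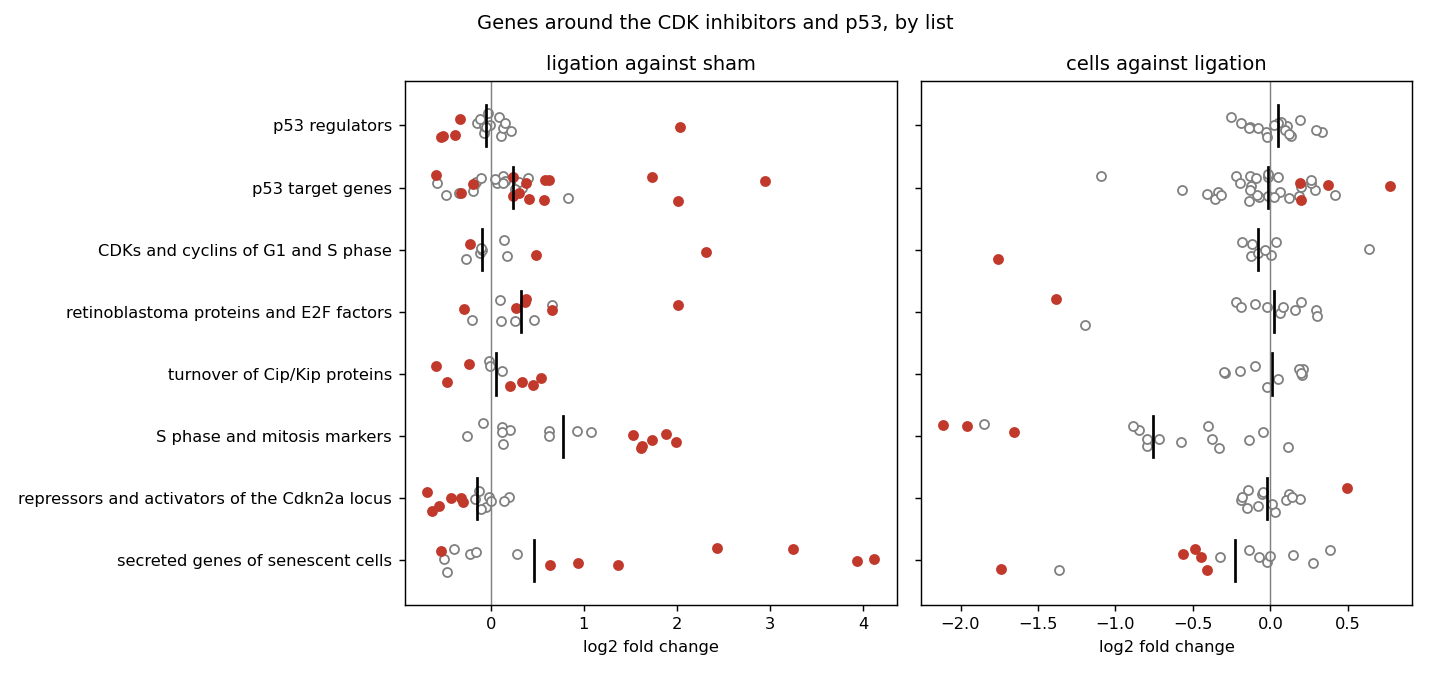
Log2 fold change (horizontal axes) of each tested gene in 8 lists around the CDK inhibitors and p53 (rows), for ligation against sham (left) and cells against ligation (right); red points have an adjusted p under 0.05 and the black bar is the list median. Among p53 target genes 11 are red to the right of 0 and 3 to the left after ligation, and among S phase and mitosis markers 3 are red to the left of 0 with cells.

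Of 9 tested kinases and cyclins on which the inhibitors act, 2 rose and 1 fell after ligation (33.3% against 38.2% of all genes), and library totals gave 3 higher and 0 lower. Ccnd2 rose from 76.4 to 97.8 CPM in sham to 115 to 126 CPM in ligation (0.48, edgeR adjusted p 4.35e-05) and was at 117 to 127 CPM with cells. Ccnd1 fell by 0.22 on the log2 scale (edgeR adjusted p 0.0292), a call lost under library totals (-0.03135), without the filter, by DESeq2 and in 4 fits without 1 library, those without sham replicate 1 or 3 or ligation replicate 1 or 2. Cdk4, the kinase on which the INK4 proteins act, was at 54.9 to 60.3 CPM in sham, 50.6 to 56.04 in ligation and 45.8 to 52.2 with cells, and did not pass after ligation (-0.09, edgeR adjusted p 0.371), but was lower with cells than in sham (-0.21, edgeR adjusted p 0.03395). Cdk4 lost that call under library totals (-0.05, edgeR adjusted p 0.6299), by DESeq2 (0.08309), with no filter (0.07187), and without sham replicate 1, sham replicate 2 or cells replicate 2 (edgeR adjusted p 0.0692 to 0.1527). Ccna2, the cyclin of S phase, was at 0.178 to 0.824 CPM in sham, 2.03 to 2.63 in ligation and 0.416 to 0.851 with cells (edgeR adjusted p 0.00138 for the rise and 0.0177 for the fall). Ccna2 passed the filter on low counts only through the ligation libraries, where it is high. The fall was lost by DESeq2 (adjusted p 0.07299) and without ligation replicate 3, cells replicate 2 or cells replicate 3 (edgeR adjusted p 0.0545 to 0.0989).

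Of 12 tested retinoblastoma and E2F genes 5 rose and 1 fell after ligation (50% against 38.2% of all genes). Rb1, the retinoblastoma protein gene, fell by 0.29 (edgeR adjusted p 0.0114), a call lost under library totals (-0.1014), where 9 of the list rose and 0 fell. E2f2, an activator of S phase genes, was at 0 to 0.952 CPM in sham and 2.03 to 2.98 CPM in ligation (edgeR adjusted p 0.00876), and it passed the filter only with the ligation libraries, where it is high. E2f3 rose by 0.66 and Tfdp1, which encodes a partner of E2F proteins, by 0.38 (edgeR adjusted p 0.00606 and 0.00724), although E2f3 lost its call without ligation replicate 3 (0.0515). E2f1 was at 3.84 to 5.21 CPM in ligation and 0.864 to 2.41 CPM with cells, the only gene of the list that changed between those groups (-1.38, edgeR adjusted p 0.0133). That fall was lost without ligation replicate 2 or cells replicate 3 (edgeR adjusted p 0.08736 and 0.08163). Of 10 tested genes for the turnover of Cip/Kip proteins 4 rose and 3 fell after ligation (70% against 38.2% of all genes), and library totals gave 4 higher and 2 lower. Ubac1, which encodes a subunit of a ligase for p27 and was 1 of the 3, lost its call under library totals (-0.0423, edgeR adjusted p 0.6845) and without sham replicate 1 or ligation replicate 1 (edgeR adjusted p 0.1129 and 0.07748). In cells against ligation 0 of the list passed by edgeR, 0 by DESeq2 and 1 by limma-voom, with 4 at an unadjusted p under 0.05. Ddb1, an adaptor of the ligase that degrades p21 in S phase, rose by 0.45, Rbx1, a subunit shared by cullin ligases, fell by 0.59 and Fbxw7, the receptor for cyclin E, fell by 0.47 on the log2 scale (edgeR adjusted p 6.4e-07, 6.89e-06 and 0.00026). Skp2, the receptor that delivers p27 for degradation, was at 1.65 to 2.98 CPM throughout and did not pass (edgeR adjusted p 0.811 after ligation and 0.683 with cells against ligation).

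Of 16 tested S phase and mitosis markers 6 rose and 0 fell after ligation (37.5% against 38.2% of all genes), and 3 fell and 0 rose with cells against ligation (18.8% against 9.87%). Of the genes of this list that were checked for it, Birc5, Kif11 and Cdk1 had no sham library at the filter's limit. Kif11 and Cdk1 passed the filter through both ligated groups. Birc5 passed it through the ligation libraries alone, where it is high, and it is 1 of the 6 that rose and 1 of the 3 that fell. The other genes of the list were not checked. After ligation DESeq2 gave 4 higher and library totals 8, and with cells against ligation library totals gave 5 lower. Kif11, 1 of the 6 that passed, lost its call by DESeq2 (adjusted p 0.05573), with libraries summed by header stem (edgeR adjusted p 0.06348) and in the fits without sham replicate 1, sham replicate 3, ligation replicate 2 or ligation replicate 3 (edgeR adjusted p 0.06018 to 0.1385). Mki67, the gene of the Ki-67 antigen, was at 2.31, 2.64 and 4.44 CPM in sham, 8.31, 10.7 and 10 CPM in ligation, and 2.27, 3.47 and 1.73 CPM with cells (1.62 and then -1.96, edgeR adjusted p 7.97e-05 and 5.78e-05). Ligation libraries were all above both other groups, which overlapped. Top2a, a topoisomerase of dividing cells, rose by 1.99 and then fell by 1.66 (edgeR adjusted p 3.91e-05 and 0.000677). All 7 macrophage markers fell in the same comparison of cells with ligation, their sum being 645 to 698 CPM in sham, 1163 to 1198 in ligation and 474 to 488 with cells, none of them at 0 in any group. Erythroid markers, of which 4 of 5 fell there, summed to 871 to 919 CPM in sham, 1496 to 1595 in ligation and 663 to 680 with cells. After ligation 4 of these 5 rose and 1 went the other way, at -5.07 on the log2 scale, so the sum does not describe every marker. Neutrophil markers, of which 4 of 5 tested fell with cells against ligation, summed to 39.8 to 47.3, 17.5 to 25.03 and 5.76 to 7.21 CPM. Of the 4 atrial myocyte markers 3 rose with cells against ligation, with sums of 474 to 564, 841 to 1608 and 1569 to 2178 CPM. After ligation, however, 1 atrial marker rose, by 3.06 on the log2 scale, and 3 fell (1 higher and 2 lower under library totals). The higher atrial sum after ligation therefore rests on 1 marker. The part of these cell types in the values of Mki67, Top2a and E2f1 was not tested. For the 8 tested CDK inhibitor and p53 genes, cells against ligation gave log2 differences from -0.12 (Trp53) to 0.10 (Cdkn2c).

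Senescent cells are often recognised by p16 or p21 together with secreted factors, and 14 such factors were tested. After ligation 7 rose and 1 fell (57.1% against 38.2% of all genes), and with cells against ligation 5 fell and 0 rose (35.7% against 9.87%). Library totals gave 8 higher and 1 lower after ligation, and 6 lower with cells. Timp1, an inhibitor of matrix proteases, went from 10.001 to 12.4 CPM in sham to 55.0 to 65.4 in ligation and 39.6 to 40.8 with cells, and the macrophage elastase gene Mmp12, which passed the filter only through the ligated groups, from 0 to 0.635 CPM to 5.75 to 8.39 and 7.80 to 9.43 CPM. The angiogenic factor gene Vegfa fell by 0.53 after ligation (edgeR adjusted p 7.16e-08). These genes are also made by fibroblasts, macrophages and endothelium without senescence, and Cdkn2a gave too few reads to be set beside them.

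Of 14 regulators of the Cdkn2a and Cdkn2b locus, 0 rose and 6 fell after ligation (42.9% against 38.2% of all genes), and library totals gave 1 higher and 3 lower. The histone demethylase gene Kdm6b, the activator gene Ets2 and the repressor gene Id1 fell by 0.63, 0.55 and 0.68 on the log2 scale (edgeR adjusted p 4.34e-06, 7.35e-08 and 3.53e-08). Id1 was the one that changed with cells, from 78.9 to 92.0 CPM in ligation to 117 to 123 CPM with cells (0.49, edgeR adjusted p 2.22e-05). In sham it was at 133 to 141 CPM, above every other library.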

How the data were processed

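Each library has 1 table that the authors deposited, holding whole-number read counts for each gene, not normalized. Per the labels' protocols TRIzol and the NEBNext Ultra RNA kit were used, and per the submitters' processing notes the genome build was mm10. The aligner, counter, strand setting and annotation release are not given in the sources used here. Rows for reads outside genes (4.14% to 4.91% of reads) and ambiguous reads (8.09% to 8.72%) were left out. Symbols, exon lengths and coordinates came from GENCODE M21 (GRCm38), which matched 53360 of 53465 gene IDs. Without strand, overlapping and antisense genes cannot be told apart.

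Counts were analysed with edgeR 4.0.16 in R 4.3.3: filterByExpr, TMM factors and 1 quasi-likelihood fit over 9 libraries with 3 group means (6 residual degrees of freedom), two-sided, with Benjamini-Hochberg adjustment over the 13825 genes tested and a threshold of 0.05. SE is the log2 change divided by the square root of F, and intervals are 95%. With 3 libraries against 3 an exact permutation test cannot go below p = 0.1, so none was used. Alternatives were other scalings and filters, DESeq2 1.42.0, limma-voom (limma 3.58.1), 2-group fits, a replicate block, removal of mitochondrial genes, a threshold of 0.01, leaving out each library and, chosen after seeing the data, summing libraries by header stem. The pipeline was tested on simulated data. Counts of the 9 replicate pairs differed beyond sampling noise (mean chi-square per gene 1.97 to 3.98). The floor of 3 counts covers counting error only.

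The genes and lists were chosen with earlier results of these data known. Named genes are the 9, a fixed set of 11, the 2 most similar profiles per changed gene, and per list and comparison up to 3 genes in each direction, by size of change, with non-overlapping CPM ranges, an adjusted p under 0.05 and 1 CPM or more on average. Some genes that this rule names are not reported here. Reads from implanted cells were not analysed separately. Figures were drawn with matplotlib 3.10.9.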

Additional observations from a re-analysis of the deposited data

How the results depend on the processing

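Over all alternatives, Cdkn2b, Cdkn1c and Mdm2 kept their direction and call against sham, while Cdkn1a after ligation and Trp53 and Cdkn1a with cells against sham did not (Cdkn1a with cells against sham was 0.2464 under library totals, edgeR adjusted p 0.006407). The count of genes called with cells against ligation was 1365, and 739 at a threshold of 0.01, by construction. In fits without 1 library the counts of all genes called ran from 4482 to 5459, 951 to 1398 and 5055 to 5746, and those of the 8 tested genes from 3 to 4, 0 to 0 and 3 to 4, for ligation, for cells set against ligation, and for cells set against sham. Sign changes were all in values that passed in neither fit, apart from Ei24. Under library totals they were Cdkn1b after ligation (0.109) and with cells against sham (0.0394), Cdkn1c and Mdm2 with cells against ligation (-0.024 and -0.0291), and Ei24, Bax and Cdk4 after ligation (0.00132, 0.0348 and 0.0962). With cells against ligation Cdkn1c was -0.00446 with upper-quartile scaling and -0.015 with limma-voom, and Mdm2 was -0.0108 with upper-quartile scaling, -0.000821 with a mean of at least 1 CPM, -0.00131 with only 2 groups and -0.0037 with libraries summed by header stem. The last setting gave -0.0204 for Cdkn2c after ligation. Fits without 1 library ranged from -0.0482 to 0.0666 for Cdkn2c and -0.05316 to 0.2959 for Skp2 after ligation. With cells against ligation they ranged from -0.09413 to 0.004717 for Cdkn1b, -0.1536 to 0.1461 for Cdkn1c, -0.2232 to 0.03634 for Cdkn2d and -0.02611 to 0.04728 for Mdm2, and with cells against sham from -0.0761 to 0.1393 for Cdkn2d and -0.6529 to 0.009254 for Mki67. The cause was not tested.

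When replicate numbers entered as a block, 4, 0 and 3 of the 8 tested genes passed, and 5134, 1230 and 5511 genes in all. Same-numbered libraries did not deviate together: the 9 correlations of deviations ran from -0.047 to 0.057. The numbers therefore show no sign of pairing, which 3 libraries per group cannot exclude. Depth limits Cdkn2a and Cdkn2b, with at most 10 and 33 reads per library.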
